A study of Drosophila melanogaster with 9 samples.

Results

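The shift that both *dLmo* mutants had in common was taken over 9 arrays of RNA from heads of adult male *Drosophila melanogaster*, 6 from mutants and 3 from the control, which are all 9 arrays of the series. The mean of the *BxJ* and *EP1306* group means was set against the *w;iso* mean for 18769 probe sets, groups of short oligonucleotides that are summed up as 1 intensity. *dLmo* is listed as *Bx* on the array and lies on the X chromosome. *BxJ* flies carry a gain-of-function allele of it and *EP1306* flies a loss-of-function allele. *w;iso*, called the control from here on and a *white* stock isogenic for chromosomes II and III, is the background to which both mutant lines had been outcrossed over several generations. The flies were untreated and, by the labels, 2 to 3 days old. The labels describe 600 flies of a genotype combined before RNA isolation and the RNA then divided in 3, whereas the methods describe 3 groups of 200 heads, so the p-values below may measure only technical spread. A probe set was counted as shared when the pooled difference had an adjusted p under 0.05 from limma and each allele alone differed from *w;iso* in that same direction at its own limma p under 0.05. By this rule 30 probe sets were higher in both mutants (0.16% of 18769 tested) and 39 were lower (0.208%), 69 in all.

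dLMO is a nuclear protein made of LIM domains that does not bind DNA itself and acts by competing with LIM-homeodomain factors for their cofactor Chip, and in flies it is known for wing patterning and for neurons of the circadian clock. Many of the shared genes belong to humoral immunity, in which the fat body, also present in the head, secretes antimicrobial peptides under the control of the Toll pathway, known for responses to fungi and Gram-positive bacteria, and the Imd pathway, known for responses to Gram-negative bacteria. Drosomycin and the bomanins are classical outputs of Toll, and diptericins and attacins of Imd.

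*Bx* itself was measured at 676, 623 and 672 in *BxJ*, 176, 106 and 167 in *EP1306* and 215, 202 and 115 in the control on its brighter probe set, so the *BxJ* arrays stood above all the others and the *EP1306* and control arrays overlapped there. The dimmer probe set was at 124.32, 157.48 and 155.61 in *BxJ*, 21.906, 22.523 and 22.432 in *EP1306* and 38.878, 45.978 and 23.741 in the control. On it every *EP1306* array lay below every control array, but this difference did not pass after adjustment (-0.42, adjusted p = 0.4597 from limma). The pooled difference of the brighter probe set did not pass the test (log2 difference 0.82, adjusted p = 0.186 from limma). The study's gene of interest, *Alk*, gave 0.06 (adjusted p = 0.799 from limma), with the alleles on opposite sides of the control. Array medians lay between 15.9 and 17.8 intensity units, and correlations of log2 values were 0.994 to 0.998 within a genotype and 0.989 to 0.995 between a mutant and a control array. The 15 photoreceptor genes, which mark head tissue, averaged between 12.03 and 12.37 on the log2 scale on the 9 arrays. Transcripts of the male accessory gland were present on some arrays, with a list mean of 5.95 to 7.45 in *BxJ*, 4.79 to 6.14 in *EP1306* and 4.79 to 5.80 in the control, and 17 of the 19 genes measured had a higher mean in the mutants (4812 of all 11982 genes did), none past the test. Among these genes, which include those of seminal fluid proteins, *Acp36DE* was at 150.1, 61.8 and 444 in *BxJ*, 84.1, 4.62 and 4.36 in *EP1306* and 8.02, 48.3 and 4.60 in the control. Control probe sets of 2 families moved with genotype. The 9 bacterial spike-in probe sets averaged 8.91 ± 0.463 in *BxJ* and 9.03 ± 0.442 in *EP1306*, against 10.27 ± 0.675 in the control (log2, SD, n = 3 each, exact permutation p = 0.0238, two-sided, the smallest that 84 splits allow), and the 3 probe sets of 18S rRNA averaged 8.80 ± 0.851, 9.74 ± 0.442 and 11.37 ± 1.18 in the same order of genotypes (exact permutation p = 0.0238). The 3′ probe sets of actin and GAPDH, at 11.75, 11.51 and 11.65, did not pass this test (exact permutation p = 0.833).

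In the pooled contrast alone, 42 probe sets were higher (0.224%) and 57 lower (0.304%), 99 in all (0.527%), and at an unadjusted p under 0.05 the counts were 572 and 1683. The 30 shared rises were larger than the 39 shared falls. Their median difference was 1.05 on the log2 scale (0.80 in *BxJ* and 1.30 in *EP1306*), and 18 of the 30 exceeded 2-fold. The median of the falls was -0.47 (-0.34 in *BxJ* and -0.42 in *EP1306*), and 6 of the 39 exceeded 2-fold. The median over all probe sets was -0.01. All 6 mutant arrays lay above all 3 control arrays for 30 of the 30 shared rises (0.884% of all probe sets did so), and below them for 38 of the 39 shared falls (3.63% of all probe sets did so), which describes the members only, since these arrays chose them. The rises name 28 single genes, and the falls 28 genes with 11 probe sets unnamed. Over all these, 12 of the rises and 7 of the falls also passed an adjusted p under 0.05 in each allele alone.

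**Figure D1:**
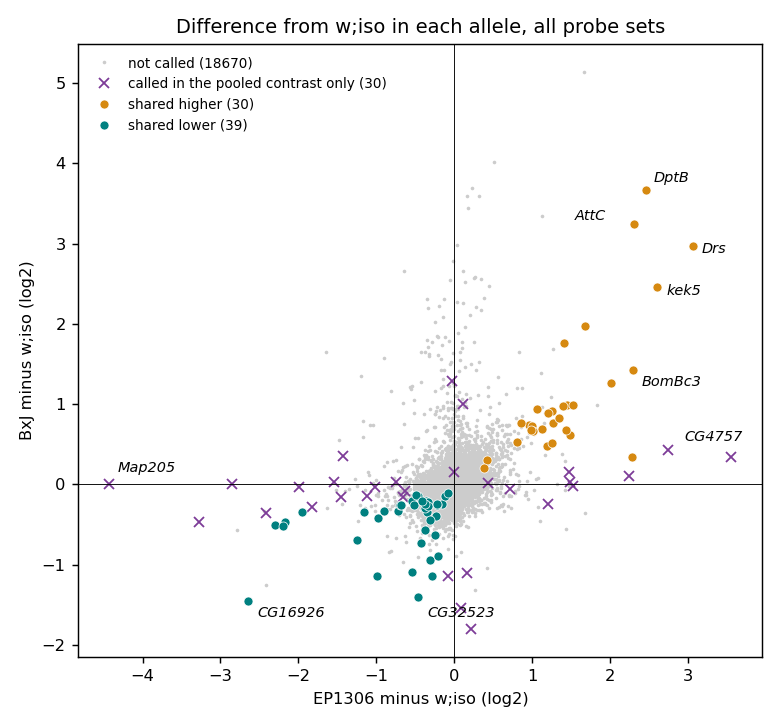
Difference from *w;iso* on the log2 scale for all 18769 probe sets, with *BxJ* on the vertical and *EP1306* on the horizontal axis and 1 point a probe set. Orange points are the 30 shared rises, teal points the 39 shared falls and purple crosses the 30 probe sets called only in the pooled contrast, which lie near an axis or in a quadrant of opposite signs.

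The calls depended on single arrays. Of the 30 rises, 16, 17 and 21 were kept without *BxJ* replicate 1, 2 and 3, 20, 22 and 14 without the *EP1306* replicates in that order, and 29, 12 and 17 without those of the control. Of the 39 falls, 14, 17 and 24, then 22, 23 and 21, and then 28, 14 and 19 were kept in the same 9 fits. In all 9 fits, 12 rises (*Drs*, *DptB*, *kek5*, *BomBc3*, *BomS5*, *BomS2*, *BaraA2*, *Tsf1*, *Prx6c*, *isoQC*, *CG33110* and a probe set shared by *CG43954* and *Lasp*) and 12 falls (*CG16926*, *Fbxl4*, *CG1894*, *CG32523*, *pdgy*, *Alp4*, *Jhbp1*, *Phb1* and 4 unnamed) were kept. The direction held for 69 of 69 in every fit, but where mutant and control arrays do not overlap, leaving out 1 array cannot turn it.

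The 3 largest rises among named genes were in antimicrobial peptide genes. *DptB*, which encodes a diptericin, had intensities of 1965, 1545 and 1142 in *BxJ*, 815, 485 and 680.1 in *EP1306* and 192, 84.8 and 66.9 in the control. For *Drs*, the gene of the antifungal peptide drosomycin, they were 5432, 5061 and 3789.5 in *BxJ*, 6395, 3751 and 5226 in *EP1306* and 866, 471 and 498 in the control. For both genes the lowest mutant array stood above the highest control array, replicate 1. The pooled fold, taken on intensity plus 16 here and throughout, was 8.37 for *DptB* (log2 difference 3.07, standard error 0.31, adjusted p = 0.00569 from limma) and 8.06 for *Drs* (log2 difference 3.01, standard error 0.24, adjusted p = 0.00172 from limma). *AttC*, which encodes an attacin, was at 1345, 1063 and 742 in *BxJ*, 681, 323 and 642 in *EP1306* and 169.8, 68.6 and 67.3 in the control, again with no overlap. It rose 6.82-fold (log2 difference 2.77, standard error 0.34, adjusted p = 0.0151 from limma), and its call was lost without *EP1306* replicate 3, control replicate 2 or control replicate 3 (differences of 2.70, 2.59 and 2.57, adjusted p up to 0.0803). The difference between the alleles did not pass the test for *DptB* (3.67 in *BxJ* and 2.46 in *EP1306*, adjusted p = 0.253 for the difference by limma), *AttC* (adjusted p = 0.461) or *Drs* (adjusted p = 0.919).

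Of 15 measured antimicrobial peptide genes, those 3 were shared and higher, none was lower, and 11 had a higher mean in the mutants, with a median difference of 0.28 (over all 11982 genes, 27 were shared and higher, or 0.225%, 25 were shared and lower, or 0.209%, 4812 had a higher mean, and the median was -0.01). *Mtk*, which encodes metchnikowin, was at 4399, 4061 and 2423 in *BxJ*, 3052, 2091 and 2848 in *EP1306* and 1632, 1195 and 647 in the control, so that its arrays did not overlap either, but its difference of 1.48 did not pass (adjusted p = 0.110 from limma). The attacin genes *AttB* and *AttA* had differences of 1.03 and 0.65 (adjusted p = 0.154 and 0.276 from limma), both without overlap. The defensin gene *Def* overlapped between genotypes, with a difference of 0.43 (adjusted p = 0.171).

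**Figure D2:**
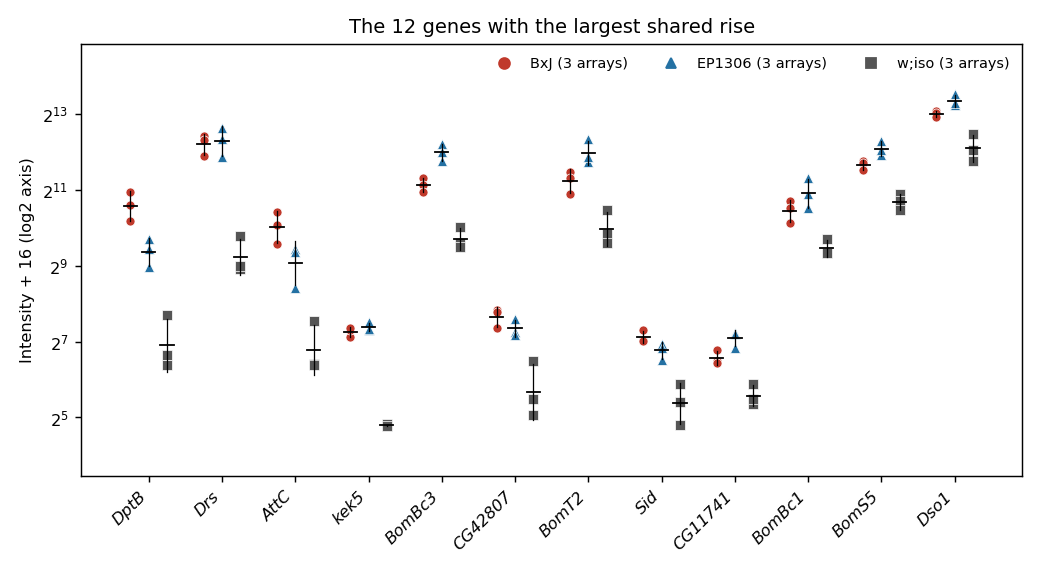
Intensity plus 16 on each array, on a log2 axis, for the 12 named genes with the largest shared rise. Red circles are *BxJ*, blue triangles *EP1306* and grey squares the control, with 3 arrays each, a horizontal bar at the mean of log2 values and a vertical line of 1 SD to either side. The 6 mutant arrays lie above the 3 control arrays for each gene, from *DptB* (difference 3.07) to *Dso1* (1.09).

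Secreted effector peptides of the Toll pathway formed the largest shared group. Of 13 measured bomanin, Daisho and Baramicin genes, 8 were shared and higher, 0 were lower, 13 had a higher mean in the mutants (4812 of 11982 genes did), and 11 had no overlap between the 6 mutant and the 3 control arrays (136 of 11982 genes lay so). Their median difference was 1.03, with a range of 0.50 to 1.85. Averaged over the 13 genes, the log2 level of an array was 11.80 to 12.11 in *BxJ*, 12.22 to 12.63 in *EP1306* and 10.93 to 11.47 in the control. Every mutant array was above every control array on this average, and the *EP1306* arrays were above those of *BxJ*.

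*BomBc3*, which encodes a bicipital bomanin, was measured at 2549.8, 2222 and 1943 in *BxJ*, 4711, 3482 and 4083 in *EP1306* and 1029, 763 and 700.4 in the control. It rose 3.62-fold (log2 difference 1.85, standard error 0.14, adjusted p = 0.00172 from limma), further in *EP1306* (2.29) than in *BxJ* (1.42), though the difference between alleles did not pass (adjusted p = 0.0599). *BomT2*, which encodes a bomanin of the tailed kind, was at 2852, 2553 and 1891 in *BxJ*, 5159.7, 3427 and 3703 in *EP1306* and 1403, 903 and 766 in the control (3.10-fold, log2 difference 1.63, standard error 0.22, adjusted p = 0.0208 from limma). The short bomanin gene *BomS5* was at 3491, 3325 and 2922 in *BxJ*, 5020.4, 3842 and 4224 in *EP1306* and 1894, 1649 and 1402 in the control (2.28-fold, log2 difference 1.19, standard error 0.11, adjusted p = 0.00450 from limma). In each of these 3 genes the *EP1306* arrays were the highest and control replicate 1 was the highest of the control arrays. *BomBc1* rose 2.33-fold, *BomS1* 2.06-fold, *BomS2* 1.78-fold and *BomS3* 1.59-fold (adjusted p = 0.0396, 0.0382, 0.00631 and 0.00906 from limma). *Dso1*, which encodes the antifungal peptide Daisho, was at 8722, 8273 and 7806 in *BxJ*, 11849, 9668 and 10023 in *EP1306* and 5665, 4260.0 and 3459 in the control (2.12-fold, log2 difference 1.09, standard error 0.14, adjusted p = 0.0197 from limma). Of the 9 fits without 1 array, *BomT2*, *BomBc1*, *BomS1*, *BomS3* and *Dso1* were called in 4, 3, 1, 8 and 5, with adjusted p up to 0.105, 0.164, 0.153, 0.0563 and 0.0967 in the others.

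The other genes of this list were *BomT3* (difference 0.75, adjusted p = 0.113), *BomBc2* (0.67, adjusted p = 0.121), *BomS6* (0.56, adjusted p = 0.139) and *BomS4* (0.50, adjusted p = 0.270), which did not pass limma's test. *BaraA2*, a Baramicin gene, was read by more than 1 probe set. The dimmer one was at 256, 281 and 224 in *BxJ*, 306, 299 and 324 in *EP1306* and 148, 142 and 151 in the control and was shared (1.82-fold, log2 difference 0.86, adjusted p = 0.00313 from limma). The brighter one, which stood for the gene in the list, was at 5066, 4381 and 3538 in *BxJ*, 6527, 4368 and 4800.3 in *EP1306* and 2796, 2266 and 1907 in the control and lay just outside the threshold (difference 1.03, adjusted p = 0.0506). *Bbd*, which encodes Bombardier, a protein that short bomanins need for their activity, was not on a list and was at 8719, 8064 and 7004 in *BxJ*, 13836, 9742 and 10614 in *EP1306* and 5045, 4090.3 and 4277 in the control (2.11-fold, log2 difference 1.08, standard error 0.12, adjusted p = 0.0113 from limma). It was called in 8 of the 9 fits, with an adjusted p of 0.0702 in the other. Bomanin genes are similar in sequence, and how far their probe sets read each other's transcripts was not tested.

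No gene of the lists for detection of microbes and for signalling passed the test. Of 7 peptidoglycan recognition protein genes, 0 were called and 5 had a higher mean in the mutants. Their median was 0.18, with 0.14 in *BxJ* and -0.02 in *EP1306*, so it was not higher in both alleles. *PGRP-SB1* was at 4669.8, 4203 and 3414 in *BxJ*, 2902, 2093 and 2187 in *EP1306* and 2187, 1396 and 1333 in the control (difference 0.95, adjusted p = 0.0900 from limma). Of 22 genes for Toll and Imd signalling, 0 were called (median 0.04, range -0.12 to 0.38), and of 12 for melanization and thioester proteins 0 were called (median 0.05). The Turandot genes, for secreted stress factors, gave 0 calls of 7 and a median of 0.04, although *TotM* and *TotC* had differences of 3.40 and 2.23 (adjusted p = 0.218 and 0.0904). *TotM* was at 1406, 2393 and 562 in *BxJ*, 38.6, 694 and 21.4 in *EP1306* and 33.2, 13.3 and 15.4 in the control, with *EP1306* replicates 1 and 3 close to the control arrays.

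The spike-in and 18S rRNA levels given above were lower on the arrays on which these genes were higher, and their part in the results was not tested apart from the fit that follows. The accessory gland level of each *BxJ* array was above those of the 3 control arrays, whereas *EP1306* replicates 2 and 3 were below control replicate 2. The median difference of that list was 1.52 in *BxJ* and 0.10 in *EP1306*. With the mean spike-in level as a covariate, the median of the bomanin list was 0.64 and that of the peptidoglycan recognition list -0.01, the difference of *Drs* was 2.33 (adjusted p = 0.167 from limma) and that of *DptB* 2.05 (adjusted p = 0.214), and 1 of the 69 probe sets, that of *kek5*, remained shared. All 6 mutant arrays had a lower spike-in level than the 3 control arrays, so in that fit spike-in level and genotype cannot be fully told apart. Without *BxJ* replicate 3, *EP1306* replicate 1 and control replicate 2, the arrays richest in accessory gland transcripts, 8 of the 30 rises remained shared, namely *Drs*, *BomBc3*, *BaraA2*, *Bbd*, *Tsf1*, *kek5*, *CG33110* and the probe set of *CG43954* and *Lasp*, and 5 of the 39 falls did. The direction was the same for 69 of 69 in both of these fits. In the fit without 3 arrays it could not turn for probe sets without overlap.

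**Figure D3:**
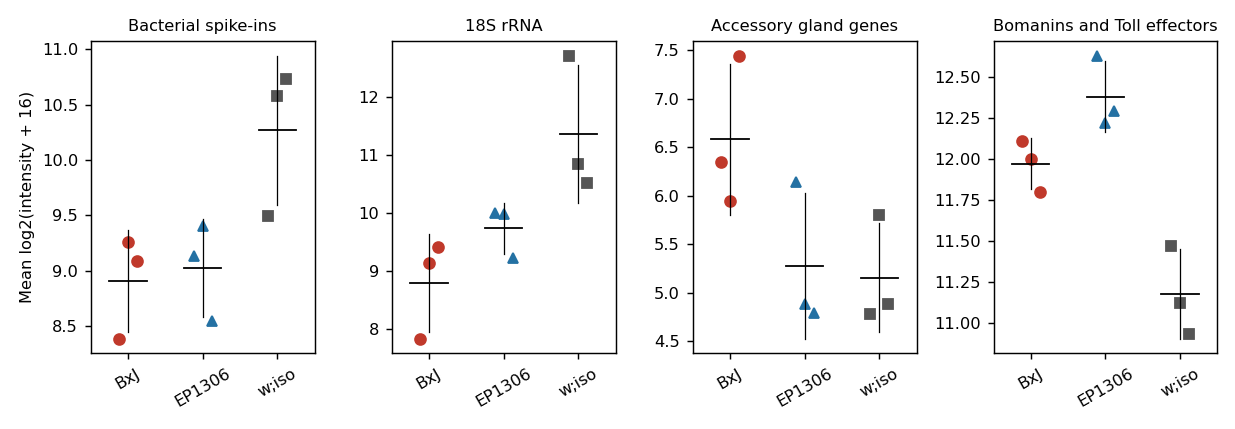
Mean log2 of intensity plus 16 on each array for the bacterial spike-in controls, 18S rRNA, the accessory gland genes and the 13 bomanin and other Toll effector genes, each on its own vertical axis. Red circles are *BxJ*, blue triangles *EP1306* and grey squares the control (3 arrays each), with the mean and 1 SD. The spike-in and 18S levels are lower in the mutants (differences -1.30 and -2.10), and the bomanin arrays of the mutants lie above all 3 of the control.

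*kek5*, which encodes a membrane-spanning protein with immunoglobulin domains and leucine-rich repeats, had the smallest adjusted p of the shared genes. Its intensities were 122, 141 and 147 in *BxJ*, 142, 146 and 166 in *EP1306* and 11.5, 12.1 and 11.3 in the control, and it rose 5.78-fold (log2 difference 2.53, standard error 0.09, adjusted p = 1.83e-05 from limma). The control values lay below the median intensity of their arrays, so the fold depends on the 16 added, and with 1 added the difference was 3.52 and with 64 added 1.46. The alleles did not differ past the threshold (2.46 in *BxJ* and 2.60 in *EP1306*, adjusted p = 0.740), and the rise was kept in 9 of 9 fits that left out 1 array. *Tsf1*, which encodes the iron-binding hemolymph protein transferrin, was at 8656, 7995 and 7758 in *BxJ*, 9251, 8297 and 8386 in *EP1306* and 5245, 4566 and 4572 in the control. It rose 1.75-fold (log2 difference 0.81, standard error 0.06, adjusted p = 0.00172 from limma), with differences of 0.76 in *BxJ* and 0.85 in *EP1306* (adjusted p = 0.749 for the difference). It was the 1 gene called among 7 for iron transport and storage, whose median was 0.03 (0.01 in *BxJ* and -0.02 in *EP1306*). These were the only 2 rises on the X chromosome, and both genes lie within 1 Mb of *Bx*, where 218 named probe sets were tested. Since the control stock was isogenic for chromosomes II and III alone, chromosome X sequence that came with the alleles cannot be told apart from the alleles themselves.

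By chromosome arm, 16 of the 28 placed rises lay on 2R, which holds 20.162% of the placed probe sets, 5 on 3L, 4 on 3R, 2 on X and 1 on 2L. Of the 16 on 2R, 10 are on the lists of antimicrobial and Toll effector peptides, and *BomBc1*, *BomS1*, *BomS2*, *BomS3*, *BomT2* and *BomS5* lie in a row with at most 2 other annotated genes between neighbours. *AttC* and *BaraA2* are likewise separated by 1 annotated gene. The 28 placed falls lay on 3R (10), X (5), 2R (5), 2L (3), 3L (3) and chromosome 4 (2), and no 2 of them were within 5 genes of each other. Of the falls 0 lay within 2 Mb of *Bx*, and 2 within 4 Mb.

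Several of the other rises encode enzymes, which were not tested as a group. *Pepck2*, which encodes phosphoenolpyruvate carboxykinase, an enzyme of gluconeogenesis, was at 998, 950.2 and 853 in *BxJ*, 2010.2, 1495 and 1327 in *EP1306* and 759, 543 and 467 in the control (2.08-fold, log2 difference 1.05, standard error 0.17, adjusted p = 0.0461 from limma). *Pfas*, for phosphoribosylformylglycinamidine synthase of purine synthesis, was at 181, 196 and 188 in *BxJ*, 334, 294 and 327 in *EP1306* and 166, 118 and 115 in the control (1.78-fold, log2 difference 0.83, standard error 0.11, adjusted p = 0.0206 from limma). In both genes the *EP1306* arrays were the highest, and for *Pfas* the alleles differed (0.47 in *BxJ* and 1.18 in *EP1306*, adjusted p = 0.0418). They were called in 1 and 2 of the 9 fits that left out 1 array (adjusted p up to 0.175 and 0.101). *Prx6c*, a peroxiredoxin gene, was at 237, 261 and 282 in *BxJ*, 482, 399 and 448 in *EP1306* and 183, 195 and 152 in the control (1.85-fold, log2 difference 0.89, standard error 0.10, adjusted p = 0.00798 from limma) and also rose further in *EP1306* (adjusted p = 0.0215 for the difference). *CG33110*, which encodes a fatty acid elongase of the ELO family, was at 1766, 1639 and 1382 in *BxJ*, 1913, 2058 and 2056 in *EP1306* and 1046, 977 and 959 in the control (1.78-fold, log2 difference 0.84, standard error 0.08, adjusted p = 0.00376 from limma). *AcCoAS*, which encodes acetyl-CoA synthetase, changed least among the rises, by 22.9% (adjusted p = 0.0227).

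The lists around these enzymes held no further shared gene. Of 28 genes for carbohydrate metabolism 1 was shared (*Pepck2*, list median 0.01), of 11 for purine metabolism 1 (*Pfas*, 0.08) and of 11 antioxidant enzymes 1 (*Prx6c*, -0.05). None was called of 13 for serine, glycine and one-carbon metabolism (median 0.14), 16 for amino acid breakdown (0.09) or 23 for lipid metabolism (0.08). The lipid list does not hold the shared rises *CG33110* and *AcCoAS*, nor the shared falls *pdgy*, *CDase* and *bond* given below. *Hpd*, which encodes an enzyme of tyrosine breakdown, lay just outside the threshold at 2756, 2364 and 1926 in *BxJ*, 2972, 2329 and 2557 in *EP1306* and 1609, 1079 and 964 in the control (difference 1.04, adjusted p = 0.0514 from limma), with no overlap between mutant and control arrays. *Gnmt*, for glycine N-methyltransferase, had a difference of 1.41 with overlapping arrays (adjusted p = 0.162).

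The other rises fall on no list. *Sid*, which encodes a stress-induced DNase, was at 143, 117 and 114 in *BxJ*, 76.1, 106 and 98.9 in *EP1306* and 43.3, 11.9 and 26.6 in the control (2.99-fold, log2 difference 1.58, standard error 0.22, adjusted p = 0.0263 from limma), and *isoQC*, for an enzyme that forms pyroglutamate at protein ends, at 275, 343 and 286 in *BxJ*, 328, 370.1 and 358 in *EP1306* and 194, 158 and 169 in the control (1.80-fold, log2 difference 0.85, standard error 0.09, adjusted p = 0.00776 from limma). *Sid* was called in 2 of the 9 fits (adjusted p up to 0.0927) and *isoQC* in all 9. *CG42807* was at 211, 148 and 204 in *BxJ*, 138, 129.6 and 178 in *EP1306* and 74.0, 17.4 and 28.7 in the control (3.54-fold, log2 difference 1.82, standard error 0.29, adjusted p = 0.0437 from limma) and was called in 1 of the 9 fits, with control replicate 1 far above the other control arrays. *CG11741* was at 74.2, 70.5 and 93.9 in *BxJ*, 135, 98.7 and 132 in *EP1306* and 42.9, 25.1 and 29.1 in the control (2.39-fold, log2 difference 1.25, standard error 0.15, adjusted p = 0.0150 from limma) and was called in 6 of them. *CG32444* (2.06-fold), the noncoding RNA gene *lncRNA:CR33942* (2.03-fold), *CG30026* (2.00-fold), *CG7083* (28.4% higher) and 1 unnamed probe set (1.87-fold) had adjusted p of 0.0256, 0.0399, 0.0456, 0.0205 and 0.0386 from limma. The probe set of *CG43954* and *Lasp*, which reads both genes, was at 214, 220.0 and 223 in *BxJ*, 933, 847 and 871 in *EP1306* and 184, 150.5 and 174 in the control, and its 2.49-fold pooled rise was far larger in *EP1306* (adjusted p = 2.97e-05 for the difference between alleles). In *BxJ* alone this probe set did not pass after adjustment (adjusted p = 0.160 from limma).

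Among the falls, no gene of a defense list was found, and 5 of the 39 probe sets name a gene of any list (*Syt7*, *nrv2*, *Tm2*, *Obp44a* and *Cpr49Ag*). *CG16926*, for which no function is given here, had the largest fall, at 697, 602 and 549 in *BxJ*, 320.5, 209.9 and 253 in *EP1306* and 2662, 1479.6 and 1240.2 in the control. It was 75.8% lower (log2 difference -2.05, standard error 0.23, adjusted p = 0.0113 from limma), with a difference of -1.45 in *BxJ* and -2.65 in *EP1306* (adjusted p = 0.108 between alleles), and was kept in all 9 fits that left out 1 array. On this gene too, control replicate 1 was the highest of the controls.

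In 22 of the 39 falls the difference between the alleles did not pass the test. *Phb1*, which encodes prohibitin of the inner mitochondrial membrane, was at 967, 990.4 and 964 in *BxJ*, 969.6, 979 and 976 in *EP1306* and 1214, 1259 and 1262 in the control, and was 21.4% lower (log2 difference -0.35, standard error 0.03, adjusted p = 0.00405 from limma), with -0.35 in *BxJ* and -0.35 in *EP1306*. *pdgy*, which encodes an acyl-CoA synthetase, was at 2829, 2473 and 2749 in *BxJ*, 3157, 3367 and 3467 in *EP1306* and 4512, 4382 and 4514 in the control and was 33.1% lower (log2 difference -0.58, standard error 0.05, adjusted p = 0.00343 from limma). *CDase*, for ceramidase, which splits ceramide, was at 360.1, 365 and 399 in *BxJ*, 414, 432 and 439.8 in *EP1306* and 551, 528 and 611 in the control (28.0% lower, log2 difference -0.47, standard error 0.06, adjusted p = 0.0169 from limma). In these 3 genes the mutant arrays did not overlap with those of the control. *Phb1* and *pdgy* were kept in 9 of 9 fits, and *CDase* was lost without *BxJ* replicate 1 or 2 (differences of -0.46 and -0.47, adjusted p up to 0.0574). *bond*, a fatty acid elongase gene, *Ifrd1*, of the interferon-related developmental regulators, and *Hipk*, for homeodomain-interacting protein kinase, were 19.0%, 20.6% and 23.1% lower (adjusted p = 0.0143, 0.0143 and 0.0290 from limma), and were called in 5, 7 and 2 of the 9 fits (adjusted p up to 0.0702, 0.0674 and 0.134 in the others).

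**Figure D4:**
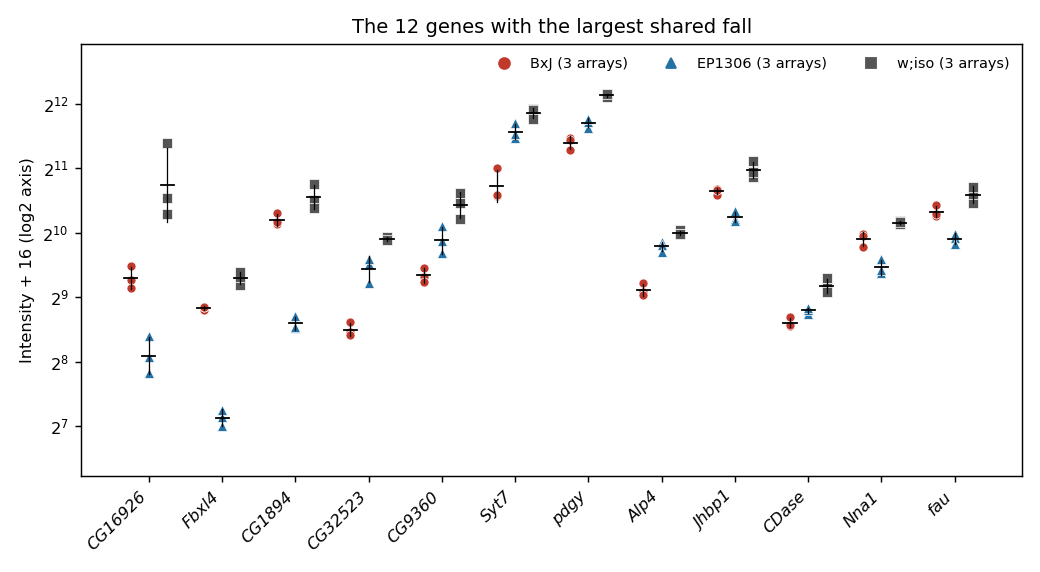
Intensity plus 16 on each array, on a log2 axis, for the 12 named genes with the largest shared fall, with symbols, means and SD bars as in the plot of the 12 largest rises. The 6 mutant arrays lie below the 3 control arrays for each gene. *Fbxl4* and *CG1894* are lowest in *EP1306* (differences -2.17 and -1.96), and *CG32523* and *Syt7* lowest in *BxJ* (-1.41 and -1.14).

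In 17 of the 39 falls and 3 of the 30 rises the alleles differed from each other (adjusted p under 0.05 from limma for *EP1306* minus *BxJ*, against 1.23% of all probe sets), with *EP1306* further from the control in 13 and 3 of them and *BxJ* in 4 and 0. *Fbxl4*, an X-linked F-box gene, was at 429, 446 and 446 in *BxJ*, 112, 126 and 137 in *EP1306* and 571, 622 and 655 in the control. It was 59.9% lower on the pooled scale (log2 difference -1.32, standard error 0.07, adjusted p = 1.67e-04 from limma), with -0.47 in *BxJ* and -2.17 in *EP1306*. *CG1894* was at 1114, 1131 and 1254 in *BxJ*, 353, 357 and 403 in *EP1306* and 1712, 1448 and 1328 in the control (55.1% lower, log2 difference -1.15, standard error 0.09, adjusted p = 0.00161 from limma). Both fell far more in *EP1306*, and in *BxJ* alone neither passed after adjustment (adjusted p = 0.0876 and 0.265). *Jhbp1*, named for juvenile hormone binding, was at 1528, 1633 and 1604 in *BxJ*, 1167, 1151 and 1279.6 in *EP1306* and 2192, 1856 and 1949.9 in the control (30.6% lower, adjusted p = 0.0118) and *Nna1*, a carboxypeptidase gene, at 867, 997 and 977 in *BxJ*, 648, 756 and 671 in *EP1306* and 1105, 1145 and 1129.7 in the control (27.9% lower, adjusted p = 0.0206). *fau* was 27.8% lower (adjusted p = 0.0290), and these 3 genes also fell further in *EP1306*. *Nna1* and *fau* were called in 6 and 2 of these 9 fits (adjusted p up to 0.105 and 0.124).

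A smaller set fell further in *BxJ*. *CG32523*, an X-linked gene, was at 336, 326 and 375 in *BxJ*, 578, 713 and 758 in *EP1306* and 931, 964 and 928 in the control (47.7% lower, log2 difference -0.93, standard error 0.09, adjusted p = 0.00389 from limma). *Alp4*, which encodes an alkaline phosphatase, was at 579, 527 and 508 in *BxJ*, 909, 879 and 821 in *EP1306* and 1036, 999.9 and 992 in the control (31.7% lower, log2 difference -0.55, standard error 0.05, adjusted p = 0.00462 from limma). *Syt7*, which encodes a synaptotagmin, a calcium sensor of vesicle fusion, was at 1503, 1519.8 and 2040.5 in *BxJ*, 2837, 2937 and 3322 in *EP1306* and 3848, 3802 and 3478 in the control (39.2% lower, log2 difference -0.72, standard error 0.10, adjusted p = 0.0290 from limma). In these 3 genes the *BxJ* arrays were the lowest and the *EP1306* arrays stood between them and the controls, and the difference between alleles passed (adjusted p = 0.00382, 0.00174 and 0.0154). In *EP1306* alone none of these 3 genes passed after adjustment (adjusted p = 0.0890, 0.222 and 0.468 from limma). *Syt7* was called in 1 of the 9 fits (adjusted p up to 0.130), *CG32523* and *Alp4* in 9. *CG9360* had differences of -1.09 in *BxJ* and -0.54 in *EP1306* (pooled 43.2% lower, adjusted p = 0.0241), with no difference between alleles past the test (adjusted p = 0.129), and was called in 4 of the 9 fits (adjusted p up to 0.109). *CG11155*, for an ionotropic glutamate receptor, was at 139, 156 and 155 in *BxJ*, 202, 202 and 197 in *EP1306* and 229, 231 and 267 in the control (26.5% lower, adjusted p = 0.0404), and was called in 1 of the 9 (adjusted p up to 0.119).

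Among the falls on no gene list, the others with a name were between 17.2% and 23.0%. *Asph*, for aspartyl beta-hydroxylase, *Naa80*, for the enzyme that acetylates the end of actin, and *CG5895* were 18.8%, 19.6% and 23.0% lower and fell further in *EP1306* (adjusted p = 0.0223, 0.0195 and 0.0360 between alleles). *Mipp1*, for an inositol polyphosphate phosphatase, *scaf*, for a serine protease homologue, *CG17734* and *CG5515* were 17.9%, 19.2%, 17.2% and 19.5% lower (adjusted p = 0.0205, 0.0461, 0.0468 and 0.0491 from limma). Each of these 7 was called in at most 3 of the 9 leave-one-out fits, and otherwise had adjusted p up to 0.175. Of the 11 unnamed probe sets that fell, the largest differences were -1.40, -1.36 and -1.06. The second of these, at 316, 355 and 445 in *BxJ*, 101, 85.7 and 128 in *EP1306* and 636, 576 and 415 in the control, was the 1 shared probe set whose mutant and control arrays overlapped. The unnamed probe set with the smallest fall was measured at 5.03, 5.14 and 5.17 in *BxJ*, 5.41, 5.73 and 5.04 in *EP1306* and 7.14, 6.16 and 6.83 in the control, near the lowest values of the arrays, and its log2 difference of -0.10 (adjusted p = 0.0495) passed the test.

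Lists for neurons, photoreceptors, glia and muscle had pooled medians below 0, with few calls, which was not tested as a group. Of 17 genes for neurons and transmitter release, 1 was shared and lower (*Syt7*), 16 had a lower mean and 4 lay below the control on all 6 mutant arrays, with a median of -0.20 (over all genes, 7170 of 11982 had a lower mean, 467 lay below on all 6 arrays, and the median was -0.01). *Rop*, for the fly Munc18 that vesicle fusion needs, was at 1352, 1487 and 1521 in *BxJ*, 1409, 1396 and 1447 in *EP1306* and 1756, 1619 and 1839 in the control (difference -0.27, adjusted p = 0.0930 from limma). *ChAT*, for the enzyme that makes acetylcholine, was at 1447, 1555 and 1792 in *BxJ*, 1617, 1808 and 1853 in *EP1306* and 1945, 2005 and 2078 in the control (-0.26, adjusted p = 0.240). Neither passed the test, although the 6 mutant arrays were below the controls in both. Of 26 genes for ion channels and receptors 0 were called and 19 had a lower mean (median -0.11), and of 15 photoreceptor genes 0 and 13 (-0.10). The list of ion channels and receptors does not hold *CG11155*, the glutamate receptor gene among the shared falls. The photoreceptor median was -0.19 in *BxJ* and 0.02 in *EP1306*, so it was not lower in both alleles. Medians for neurons, ion channels, glia and muscle were below 0 in each allele. Among 11 glial genes, 10 had a lower mean (median -0.10) and 1 was shared, *nrv2*, which encodes a beta subunit of the sodium pump, at 6560.0, 6937 and 6896 in *BxJ*, 7009, 7354 and 7116 in *EP1306* and 8028, 8136 and 7904 in the control (difference -0.20, adjusted p = 0.0461). In 18 muscle genes the median was -0.12 and 1 was shared, *Tm2*, a tropomyosin gene, at 9328, 10157 and 9649.5 in *BxJ*, 9436, 10165 and 9738 in *EP1306* and 11326, 11393 and 11612 in the control (14.9% lower, adjusted p = 0.0495). *nrv2* and *Tm2* lost their call in 9 of 9 fits that left out 1 array (adjusted p up to 0.195 and 0.178). In bulk heads, fewer cells of a type and less RNA per cell cannot be told apart.

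**Figure D5:**
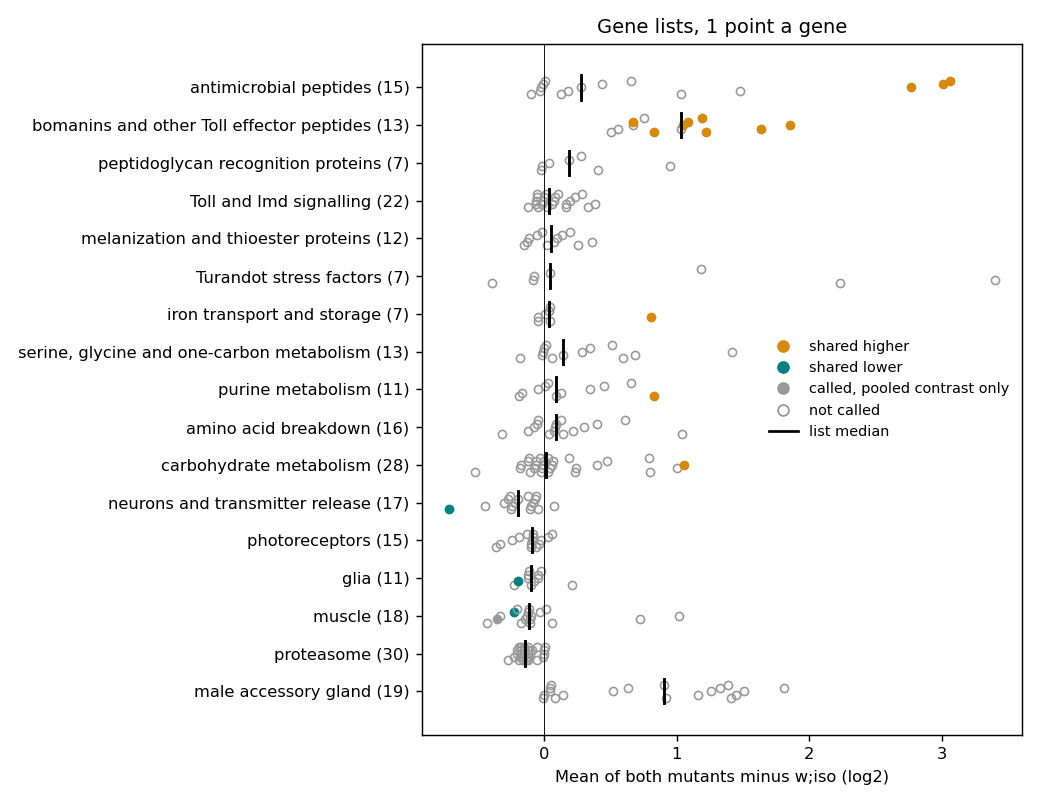
Pooled log2 difference (mean of both mutants minus control) of each gene in 17 lists, 1 row a list with the number of genes measured in brackets. Orange and teal points are shared rises and falls, filled grey points were called in the pooled contrast only, open points were not called, and a black bar marks the list median. The bomanin list has its median at 1.03 with 8 orange points, and the male accessory gland list a median of 0.90 with none.

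*Obp44a*, for an odorant-binding protein, was 19.2% lower (adjusted p = 0.0378 from limma) and was the 1 shared gene among 47 of its family (median 0.01), and *Cpr49Ag*, for a cuticle protein, was 23.4% lower (adjusted p = 0.0358) and the 1 among 104 (median -0.01). They were called in 1 and 2 of the 9 fits (adjusted p up to 0.153 and 0.136). For the proteasome, 29 of 30 genes had a lower mean and 5 lay below the control on all 6 mutant arrays (7170 and 467 of all 11982 genes did so). None was called, and the median was -0.15 (-0.07 in *BxJ* and -0.20 in *EP1306*). No shared gene was found among 83 P450 enzymes (median 0.00), 69 glutathione and UDP-glycosyl transferases (-0.01), 13 heat shock proteins and chaperones (0.00), 13 genes for eye pigments (0.00), 11 for the circadian clock (-0.03, with a sign that turned under quantile normalization), 19 for the monoamine system (-0.08), 25 for neuropeptides (-0.06), 8 for fat body and hemolymph proteins (-0.05) or 165 chemoreceptors (-0.01). The same held for 41 cytosolic (-0.01) and 69 mitochondrial ribosomal proteins (-0.02), 71 genes for the respiratory chain and ATP synthase (-0.02), 19 for testis (0.20, with 0.41 in *BxJ* and -0.09 in *EP1306*), 24 for midgut enzymes (-0.01), 15 for dLMO and its partners (-0.05), 11 for the ALK and ERK cascade (-0.03) and 10 for dosage compensation and sex determination (0.03).

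The condition on each allele set aside 12 rises and 18 falls that passed the pooled contrast. In 8 of the 12 and 13 of the 18 only *EP1306* differed from the control at an unadjusted p under 0.05, in 3 and 4 only *BxJ* did, so a difference between the alleles is built into how these 30 were picked. *Cyp6a20*, a P450 gene, was at 378, 362 and 375 in *BxJ*, 1561, 1771 and 1726 in *EP1306* and 405, 371 and 273 in the control, so the *EP1306* arrays alone carried its pooled difference of 1.17 (adjusted p = 0.00431). *Mlp84B*, a muscle LIM protein gene, was at 6847, 6811 and 7382 in *BxJ*, 3885, 4121 and 4229.6 in *EP1306* and 6672, 6634 and 7236 in the control (pooled -0.36, adjusted p = 0.0205), again with *BxJ* at the level of the control. *Ugt35B1*, a UDP-glycosyltransferase gene, showed the same order, with -0.15 in *BxJ* and -1.46 in *EP1306* (pooled adjusted p = 0.0206). *SkpB* and *jim* differed from the control in opposite directions in the alleles at an unadjusted p under 0.05 (-0.24 in *BxJ* and 1.20 in *EP1306* for *SkpB*, 0.35 and -1.43 for *jim*). In *BxJ* alone neither passed after adjustment (adjusted p = 0.258 and 0.160 from limma).

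The shared probe sets nearest the threshold were *Tm2* and an unnamed probe set (adjusted p = 0.0495 for each, from limma) and *CG5515* (adjusted p = 0.0491). Just outside it, with each allele at p under 0.05, lay *CG9886* (difference 0.76, adjusted p = 0.0505) and the brighter probe set of *BaraA2* (adjusted p = 0.0506).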

How the data were processed

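RNA from male heads of *BxJ*, *EP1306* and *w;iso* was hybridized to 9 Affymetrix Drosophila 2.0 arrays. The authors deposited linear intensity values made with MAS5, with 1 value for each of 18952 probe sets. The MAS5 version and other normalization steps are not given in the sources used here. After removal of 183 control probe sets, values were taken as log2(intensity + 16) without scaling of the arrays to each other. Means of the 3 groups were fitted with limma 3.58.1 in R 4.3.3 (lmFit, contrasts.fit, and eBayes with a prior variance that follows intensity), with the contrast of the mean of both mutant means minus *w;iso*. Benjamini-Hochberg adjustment was over 18769 probe sets with a threshold of 0.05. Single values were also compared by exact permutation, two-sided, over 84 splits. On simulated data for this comparison (5 simulations, 18769 probe sets), shared changes were found in 78.4% of cases for a log2 size of 0.5, in 97.4% for 1 and in 100.0% for 2, and 6.32% of shared calls were false or held in 1 allele only. The simulated noise was independent between arrays and the number of true changes was set beforehand. These shares therefore need not hold for the real arrays, whose control probe sets moved with genotype. The number of arrays limits the precision.

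The array annotation names 1 gene for 13681 probe sets, 34 of them from the study's supplementary table alone, several for 402 and none for 4686. Symbols, chromosome arms and gene order come from a RefSeq gene table of Release 6. For the 39 gene lists, 1 probe set was taken for each gene, that with the highest mean, which left 11982 genes. The members and the lists were chosen with earlier results of these data known. Named by rule were the 12 largest rises and 12 largest falls among shared probe sets with 1 gene and no overlap, *Bx*, *Alk*, up to 4 called members of each list and up to 6 shared genes within 2 Mb of *Bx*, and all other genes were named after their values were seen. The alternatives tried were adding 1 or 64 before the log, a minimum mean intensity of 50, median centring, quantile normalization, no trend, the replicate number as a block, the mutants as 1 group of 6, leaving out each array, leaving out the array of each genotype with most accessory gland transcripts, the spike-in level as a covariate, the methods' t-test, and windows of 1 and 4 Mb. Chosen after seeing the data were the list medians in the fits without those 3 arrays and with the spike-in covariate.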

Additional observations from a re-analysis of the deposited data

Results flagged for a closer look

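For 20 of the 69 shared probe sets the alleles, although on the same side of *w;iso*, differed from each other (adjusted p under 0.05 from limma for *EP1306* minus *BxJ*). Among the falls, the difference was negative, with *EP1306* the lower, for *Fbxl4* (-1.70), *CG1894* (-1.61), *Nna1* (-0.44), *fau* (-0.42), *Jhbp1* (-0.40), *Naa80* (-0.36), *CG5895* (-0.34), *Asph* (-0.32) and 5 unnamed probe sets (-1.80, -1.69, -0.82, -0.57 and -0.55, on the log2 scale). It was positive, with *BxJ* the lower, for *CG32523* (0.94), *Syt7* (0.85), *Alp4* (0.68) and 1 unnamed probe set (0.63). Among the rises it was positive, with *EP1306* the higher, for the probe set of *CG43954* and *Lasp* (1.94), *Prx6c* (0.73) and *Pfas* (0.71).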

How the results depend on the processing

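The direction held for 69 of 69 shared probe sets under each of 19 alternatives that refit the model (66 of the 66 measured with a minimum intensity of 50), whereas counts of calls moved widely. Outside quantile normalization, median centring and the spike-in covariate, the direction could not turn for probe sets whose mutant and control arrays do not overlap. With a minimum mean intensity of 50 (7873 probe sets tested), 63 were shared and higher and 94 lower, 80 and 142 passed the pooled contrast, and the alleles differed in 31 shared probe sets. With the 6 mutant arrays as 1 group, whose spread then holds the difference between alleles, these counts were 4, 3, 4, 3 and 0. Without the 3 arrays richest in accessory gland transcripts they were 8, 5, 14, 7 and 5, with fewer arrays, and with the spike-in level as a covariate 1, 0, 1, 1 and 0. The methods' t-test gave 77 higher and 274 lower, and 0 and 0 after Benjamini-Hochberg, against 30 and 39 by limma. Of these 30 and 39, 30 and 37 passed the methods' t-test before adjustment. Quantile normalization gave 41 higher and 27 lower in place of 30 and 39, and 54 and 44 in the pooled contrast in place of 42 and 57. Under it all 30 rises stayed shared but only 20 of the 39 falls did. *Syt7*, *Nna1*, *fau*, *Hipk* and *bond* were among the falls lost. Leaving out 1 array at a time gave 12 to 68 shared rises (12 without control replicate 2 and 68 without control replicate 1), 15 to 102 shared falls (15 without *BxJ* replicate 1 and 102 without control replicate 1), 15 to 77 and 22 to 114 pooled calls, and 7 to 23 differences between alleles. The cause was not tested. By correlations of deviations the replicate numbers did not pair the arrays (from -0.38 to 0.29 for same-numbered arrays). Replicate 1 was nevertheless the highest array of each genotype for *DptB*, *Drs*, *AttC*, *Dso1*, *Bbd*, *Tsf1* and the shared bomanin genes. The bomanin list mean showed this too (12.11 in *BxJ*, 12.63 in *EP1306* and 11.47 in the control). It was not so for *kek5*, *Prx6c*, *isoQC* and the dimmer probe set of *BaraA2*, among others. Whether these immune genes carry a replicate effect was not tested. With the replicate block, 71 probe sets were shared and higher and 82 higher in the pooled contrast, and the other counts stayed within 1.5 times. Within 4 Mb of *Bx* there were 4 shared probe sets, against 2 within 2 Mb.

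Of 760 values for 40 named probe sets, 524 kept direction and call, and 234 lost the call, 120 of these with 1 array left out. *Alk* ranged from -0.0095 without *EP1306* replicate 3 to 0.101 without *EP1306* replicate 1, and the brighter probe set of *Bx* passed with the minimum intensity of 50 (0.82, adjusted p = 0.0465 from limma). Medians of 9 lists moved with the spike-in covariate by more than the SD between arrays of a genotype, taken as the median over the genes of the list. Among them were Toll and Imd signalling (-0.16), melanization (-0.13), purine metabolism (-0.13), amino acid breakdown (-0.06) and iron (-0.07).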
